A study of Mus musculus with 371 samples.

Results

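The constitutive proteasome subunits were described in single T cells from B16F10 melanoma, a transplantable mouse melanoma line. They are the genes with symbols Psma, Psmb, Psmc or Psmd and a number, without the 3 immunoproteasome genes Psmb8, Psmb9 and Psmb10. This rule found 36 of 23362 genes, of which 16 were core subunits (Psma and Psmb) and 20 were regulatory subunits (Psmc and Psmd). The rule uses symbols, not measured values. The cells were in 4 groups from C57BL/6 mice: KO CD8, WT CD8, KO CD4 and WT CD4. KO is the labelled knockout of IL27ra, the receptor chain for the cytokine IL-27, and WT is wild type. Both genotypes carried tumours. CD8 and CD4 are the 2 sorts named in the titles, and the labels' treatment text names CD8+ T cells only. No age or number of animals is given in the labels. Each group carried 1 animal-like name and the replicate number 3, so each is 1 pool of cells. A difference between genotypes cannot be told apart from a difference between pools. The titles also tag all CD8 cells p1 and all CD4 cells p2, with no meaning given, so a difference between the sorts cannot be told apart from one between these tags or between pools.

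The proteasome is the barrel-shaped protease that degrades proteins tagged with ubiquitin. Its core holds rings of alpha subunits, which gate the entry, around rings of beta subunits, 3 of which cut the substrate. The regulatory particle that caps it has a base of ATPases, which unfold the substrate, and a lid that removes the ubiquitin. In T cells, cytokines such as interferon gamma induce the immunoproteasome subunits, which take the place of the constitutive catalytic ones and shape the peptides shown on MHC class I.

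RNA was read by Smart-seq2, a full-length cDNA method for 1 cell at a time, as FPKM, which is scaled by transcript length and library size, so that levels can be compared between genes. With 21 cells of fewer than 1000 genes at 1 FPKM or above left out, 350 were kept: 86 of 90 KO CD8, 90 of 94 WT CD8, 89 of 93 KO CD4 and 85 of 94 WT CD4 cells. The median number of such genes per cell was 1955 in KO CD8 and 2148 in WT CD8, and it was 1868 in KO CD4 and 1661 in WT CD4. At least 2 T cell markers stood at 10 FPKM or above in 84 of 86 KO CD8, 89 of 90 WT CD8, 86 of 89 KO CD4 and 80 of 85 WT CD4 cells. Cd4 was at 1 FPKM or above in 0 of the KO CD8 and 0 of the WT CD8 cells, and in 87.6% of KO CD4 and 87.1% of WT CD4 cells. Cd8a or Cd8b1 was at 1 FPKM or above in 97.7% of KO CD8 and 92.2% of WT CD8 cells. The same held in 22.5% of KO CD4 and 25.9% of WT CD4 cells, so the sorts did not separate fully by these genes. Both were at 10 FPKM or above in 62 KO CD8, 67 WT CD8, 0 KO CD4 and 1 WT CD4 cells. Il27ra itself was at 1 FPKM or above in 53.5% of KO CD8, 51.1% of WT CD8, 50.6% of KO CD4 and 50.6% of WT CD4 cells. The deleted part of the gene is not given in the labels, so these values do not check the genotype, and KO and WT are used as labelled. Markers of other cell types (at least 2 of a list at 10 FPKM or above) were found in 5 KO CD8, 7 WT CD8, 9 KO CD4 and 8 WT CD4 cells. Genes of the cell cycle marked 3 KO CD8, 15 WT CD8, 14 KO CD4 and 10 WT CD4 cells. Foxp3, which marks regulatory T cells, was present in 4 KO CD8, 0 WT CD8, 35 KO CD4 and 46 WT CD4 cells.

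The members are spread over 16 chromosomes, with at most 6 on a single one, chromosome 11. Psmb5 and Psmb11 on chromosome 14 were the only pair of members within 100 kb of each other, 7315 bases apart in mm10. RefSeq promoters (GRCm38.p6, 250 bases before to 50 after the start) were matched by symbol for 29 of the 36, all but Psma8, Psmb1, Psmb2, Psmb7, Psmc3, Psmd3 and Psmd7. Promoters of 4 members that lay past the fold used below in at least 1 comparison between KO and WT are printed to set regulatory beside core genes. Psmd4 is at chr3:95042565-95042864 on the minus strand, Psmd13 at chr7:140882144-140882443 on the plus strand, Psma7 at chr2:180042415-180042714 on the minus strand and Psmb3 at chr11:97703184-97703483 on the plus strand. Capitals mark CCGGAAG, the core of many ETS factor sites, and CCAAT, the CCAAT box, each read on both strands, so that CCAAT on the other strand appears as ATTGG.
Psmd4: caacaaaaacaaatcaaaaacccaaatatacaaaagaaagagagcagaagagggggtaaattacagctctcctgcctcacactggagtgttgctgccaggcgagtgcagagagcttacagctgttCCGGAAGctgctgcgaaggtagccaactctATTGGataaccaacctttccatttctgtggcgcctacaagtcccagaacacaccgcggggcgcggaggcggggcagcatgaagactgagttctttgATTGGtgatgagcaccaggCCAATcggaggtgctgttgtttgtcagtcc
Psmd13: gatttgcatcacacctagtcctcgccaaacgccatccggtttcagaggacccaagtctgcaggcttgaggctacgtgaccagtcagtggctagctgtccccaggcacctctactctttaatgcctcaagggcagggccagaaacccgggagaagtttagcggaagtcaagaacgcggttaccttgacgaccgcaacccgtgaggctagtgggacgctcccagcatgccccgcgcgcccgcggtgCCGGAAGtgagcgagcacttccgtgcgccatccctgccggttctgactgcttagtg
Psma7: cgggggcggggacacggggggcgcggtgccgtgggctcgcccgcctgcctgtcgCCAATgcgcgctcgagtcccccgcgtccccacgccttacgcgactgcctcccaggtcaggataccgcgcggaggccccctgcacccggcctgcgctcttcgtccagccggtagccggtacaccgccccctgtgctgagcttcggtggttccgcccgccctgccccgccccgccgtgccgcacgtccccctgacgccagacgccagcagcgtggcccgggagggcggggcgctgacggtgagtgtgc
Psmb3: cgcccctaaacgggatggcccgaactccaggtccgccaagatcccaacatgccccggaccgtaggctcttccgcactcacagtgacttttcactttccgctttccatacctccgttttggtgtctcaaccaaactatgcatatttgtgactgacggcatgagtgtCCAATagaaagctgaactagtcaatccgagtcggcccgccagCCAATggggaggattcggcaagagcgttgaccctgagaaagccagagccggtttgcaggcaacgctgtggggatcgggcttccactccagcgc
CCGGAAG was present in 9 of 17 regulatory promoters (52.9%), in 1 of 12 core promoters (8.33%) and in 13.3% of the promoters of 15144 protein-coding genes in the table. The 9 were those of Psmc1, Psmc2, Psmc6, Psmd2, Psmd4, Psmd6, Psmd11, Psmd12 and Psmd13, and the core promoter was that of Psma6. A gene with more than 1 promoter window counted if any of them held the motif. For Psma6 the matches lay in a window that starts at base 55398575 of chromosome 12. None lay in its window at the start of the gene, from base 55383972. CCAAT ran the other way, with 5 of 17 regulatory promoters (29.4%), 7 of 12 core promoters (58.3%) and 42.4% of all. The GC box GGGCGG, the usual site of Sp1, was in 76.5% of regulatory, 41.7% of core and 52.1% of all promoters. The antioxidant response element core TGACNNNGC, the letters bound by Nfe2l1 and Nfe2l2, was in 17.6% of regulatory, 16.7% of core and 15.2% of all promoters. Only 1 pair of matches of different motifs overlapped, TGACNNNGC and GGGCGG in Psmd9. These matches describe letters in the window and not binding in these cells.

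The core genes had the higher sum in every group. The mean FPKM over cells, summed over the 16 core genes, was 2284 in KO CD8, 2713 in WT CD8, 2508 in KO CD4 and 2239 in WT CD4, against 1449.7, 1953, 1857 and 1771 for the 20 regulatory genes in the same order. Psmb1, a non-catalytic beta subunit, had the highest mean over all 350 cells, at 317.8 FPKM, and was at 1 FPKM or above in 62.9% of them. Psmb3, a beta subunit with no catalytic site, followed at 294.4 FPKM and Psma2 of the alpha ring at 229.8 FPKM. Among regulatory genes the highest group means were those of Psmd4, the ubiquitin receptor of the base, in KO CD8 (156.1 FPKM), KO CD4 (221.2 FPKM) and WT CD4 (176.1 FPKM), and of the ATPase Psmc3 in WT CD8 (183.4 FPKM).

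Even Psmb1 varied widely between cells of a pool. Its lowest value was 0 in each group, its median was 268.9 FPKM in KO CD8, 391.7 in WT CD8, 210.7 in KO CD4 and 80.3 in WT CD4, and its highest value was 1459, 1678, 1999.96 and 1207 FPKM in the same order. The pools overlapped over nearly the whole range. Most members were found in a minority of cells, so that their median was 0 in most pools. The median share of cells over the core genes was 38.95% in KO CD8, 47.8% in WT CD8, 36.5% in KO CD4 and 34.7% in WT CD4. Over the regulatory genes it was 28.5%, 40%, 32.6% and 27.6%. Spreads and intervals here describe cells of 1 pool and cover counting error only. The share of all genes whose intervals do not overlap between pools was not computed. Intervals that do not overlap below therefore do not set a member apart from other genes.

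**Figure D1:**
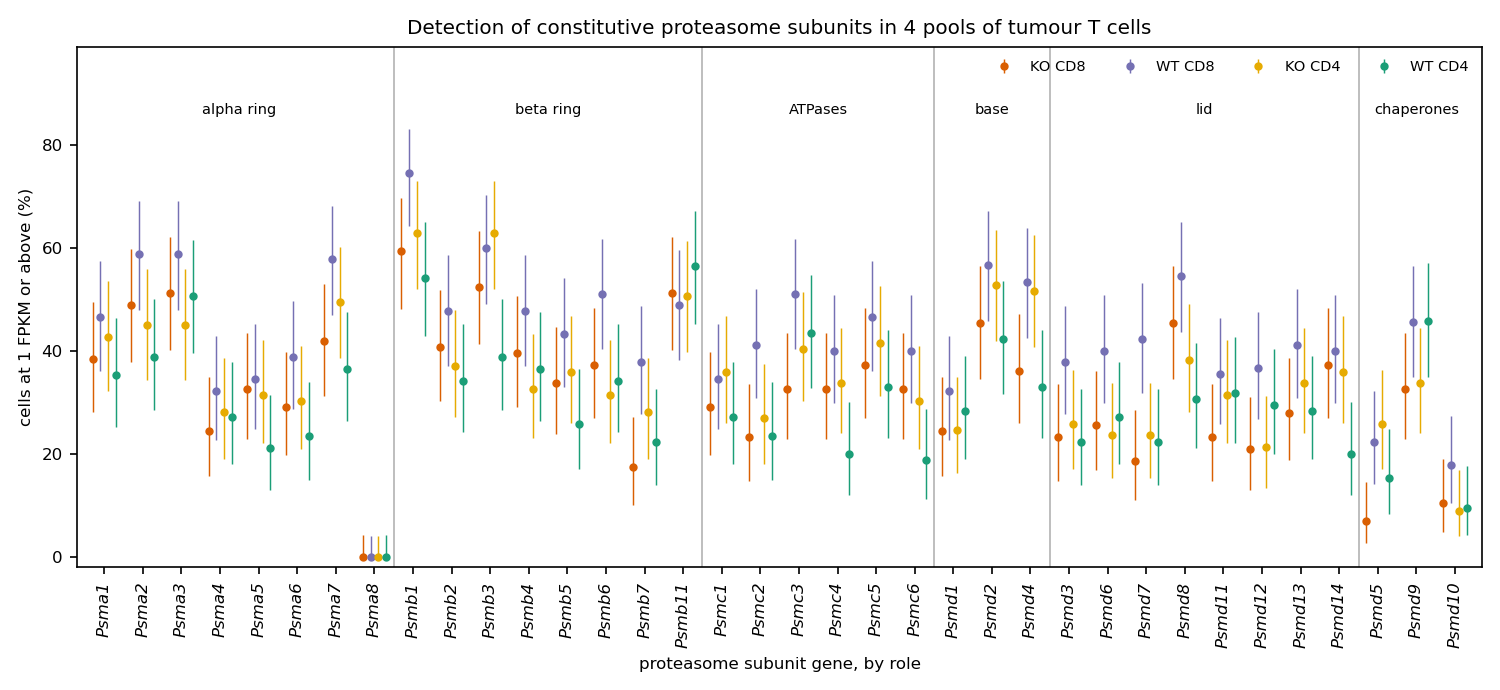
Percent of cells at 1 FPKM or above (y axis) for the 36 subunits, ordered by role (x axis), in KO CD8, WT CD8, KO CD4 and WT CD4 pools; bars are 95% intervals (exact, Clopper-Pearson) for counting error alone. Psmb1 is the most often found member in WT CD8 at 74.4%, Psma8 is at 0 in every pool, and the chaperone Psmd10 lies between 8.99% in KO CD4 and 17.8% in WT CD8.

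3 members stood apart from the others in level. Psma8, the alpha subunit of the testis proteasome, was at 0 FPKM in all 350 cells, which allows a share of up to 3.49% in KO CD8, 3.33% in WT CD8, 3.37% in KO CD4 and 3.53% in WT CD4. Psmb11, the thymus-specific catalytic subunit beta5t, was at 1 FPKM or above in 51.7% of cells but never above 6.08 FPKM, and no cell reached 10 FPKM. Its share was 51.2% in KO CD8, 48.9% in WT CD8, 50.6% in KO CD4 and 56.5% in WT CD4. Where other core genes were found, their median was far higher, such as 430.1 FPKM for Psmb1, so that a share at 1 FPKM means something else for Psmb11. Psmd9, a chaperone of base assembly, was mixed, with 39.4% of cells at 1 FPKM or above and 14.3% at 10 FPKM or above. Of the other chaperones, Psmd5 was found in 17.7% and Psmd10 (gankyrin) in 11.7% of all cells.

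KO and WT cells of the CD8 sort, 1 pool of each, were compared first. A gene is called found in a cell at 1 FPKM or above. A member counted as measured if found in 20% or more of the cells of 1 of the pools compared, its value was the mean of log2(FPKM + 1) over cells, and it was past the fold when the values differed by at least 1. In KO CD8 cells, 14 of 15 measured core genes and 19 of 19 measured regulatory genes had lower values than in WT CD8 cells, against 78.7% of all 4686 measured genes. The median difference, KO minus WT, was -0.70 for core and -0.81 for regulatory genes, against -0.40 for all measured genes. As the log2 of mean FPKM the medians were -0.20 for core and -0.33 for regulatory genes, against -0.23 for all genes, so on that scale the core median was not below that of all genes. Past the fold and lower were 3 of 15 core genes and 9 of 19 regulatory genes, against 13.3% of all genes. No member was higher past the fold, against 0.555% of all genes. Psma8 and Psmd10 were not measured, and Psmb11 was the core gene that was not lower, at 0.05, against 21.3% of all genes that were higher. Below the median of all genes lay 12 core and 18 regulatory genes. KO CD8 cells also had fewer genes each, 1955 against 2148 at the median.

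In the alpha ring, which gates the core, all 7 measured genes were lower and the median difference was -0.83. Psma7 lay furthest down, with 41.9% of KO CD8 cells (95% interval 31.3 to 52.99) against 57.8% of WT CD8 cells (46.9 to 68.1), a mean of 163.2 FPKM against 212.6 FPKM, and a log2 difference of -1.25. The intervals of the shares overlapped, and Psma7 values ran from 0 to 1451 FPKM in KO CD8 cells and from 0 to 1008 FPKM in WT CD8 cells. Psma5 lay nearest to 0 in that ring, at -0.23.

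In the beta ring catalytic and non-catalytic members were mixed in order. Psmb7, which carries the trypsin-like site, was found in 17.4% of KO CD8 cells (10.1 to 27.1) against 37.8% of WT CD8 cells (27.8 to 48.6). These intervals did not overlap, and the log2 difference was -1.62. The other catalytic genes differed less, with Psmb6 (caspase-like site) at -0.92 and Psmb5 (chymotrypsin-like site) at -0.67. Psmb5 had nearly the same mean in both pools, 196.04 FPKM in KO CD8 and 195.8 FPKM in WT CD8, though 33.7% of KO CD8 and 43.3% of WT CD8 cells had it. Psmb1, the most abundant member, averaged 295.9 FPKM in KO CD8 and 398 FPKM in WT CD8, with a log2 difference of -1.41 and overlapping intervals. Psmb3 turned on the scale used, at 274.8 FPKM in KO CD8 and 256.9 FPKM in WT CD8, yet -0.38 for the mean of logs.

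Among the ATPases, which form the ring that unfolds substrates, 6 of 6 were lower. Psmc3 averaged 93.7 FPKM in KO CD8 and 183.4 FPKM in WT CD8 (log2 difference -1.62), and Psmc2 averaged 50.97 FPKM in KO CD8 and 104.4 FPKM in WT CD8 (-1.45). Psmc1, Psmc4, Psmc5 and Psmc6 were lower by less than the fold, at -0.44, -0.65, -0.57 and -0.74. Exons of Psmc3 overlap those of Slc39a13 on the other strand, and whether the counting used strand is not given in the sources used here, so its value is uncertain to that extent. The same holds for Psma4, Psmb7, Psmd1 and Psmd13, which overlap AY074887, Nek6, Htr2b and Sirt3, and for Psmb5, which holds Mir686 on its own strand.

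The lid, which holds the deubiquitinase and its scaffold, had the most genes past the fold, 5 of 8 with a median of -1.05, against 13.3% of all genes with a median of -0.40. Psmd7, the inactive partner of the deubiquitinase, had the furthest value of all members. It was found in 18.6% of KO CD8 cells (11.02 to 28.4) against 42.2% of WT CD8 cells (31.9 to 53.1), averaged 34.7 FPKM in KO CD8 and 99.96 FPKM in WT CD8, and differed by -1.90. Psmd14, the deubiquitinase itself, differed by only -0.39, with 37.2% of KO CD8 and 40% of WT CD8 cells. Psmd3, Psmd13, Psmd6 and Psmd12, scaffold subunits of the lid, lay at -1.21, -1.12, -1.06 and -1.04. In the base, Psmd4 lay at -1.25, and the large scaffold subunits Psmd2 and Psmd1 at -0.76 and -0.43. The base chaperone Psmd5 was found in 6.98% of KO CD8 cells (2.60 to 14.6) and 22.2% of WT CD8 cells (14.1 to 32.2), with intervals that just overlapped and a log2 difference of -1.08.

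At the median, these differences lay in how many cells had the RNA, more than in its level where found. Over cells that had the gene, the median difference in mean log2 was 0.01 for core and -0.16 for regulatory genes. Single members ran from -0.68 (Psmc6) to 0.80 (Psma4) where found. Among them, Psmd7, Psmc3 and Psmb7 were also lower where found, at -0.64, -0.51 and -0.33. Differences where found were not computed for all genes. In single-cell data, fewer cells with RNA of a gene and less RNA captured per cell cannot be told apart from shares alone. Only 3 KO CD8 cells, but 21 WT CD8 cells, had 3000 or more genes. Cells were then weighted to the same spread over bins of genes found, which start at 1000, 1500, 2000, 2500 and 3000 genes. With this weighting the core median became 0.29 and the regulatory median -0.26, against -0.07 for all genes. The last bin is open and reached 3303 genes in KO CD8 but 5520 in WT CD8. Depth was therefore not made equal within it. In cells with 1000 to fewer than 3000 genes the medians were 0.14 for core and -0.17 for regulatory genes, and without cells that had at least 3 of the receptors Pdcd1, Havcr2, Lag3 and Tigit they were 0.09 and -0.23. Of the 12 members past the fold, 3 stayed past it in the weighted cells, Psmd7 at -1.08, Psmb7 at -1.24 and Psmc3 at -1.02. The other 9 lay inside the fold there, between -0.85 (Psmc2) and -0.26 (Psmd6). Without cycling cells the regulatory median was -0.58 and the core median -0.47, and without cells with markers of other types they were -0.85 and -0.75.

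**Figure D2:**
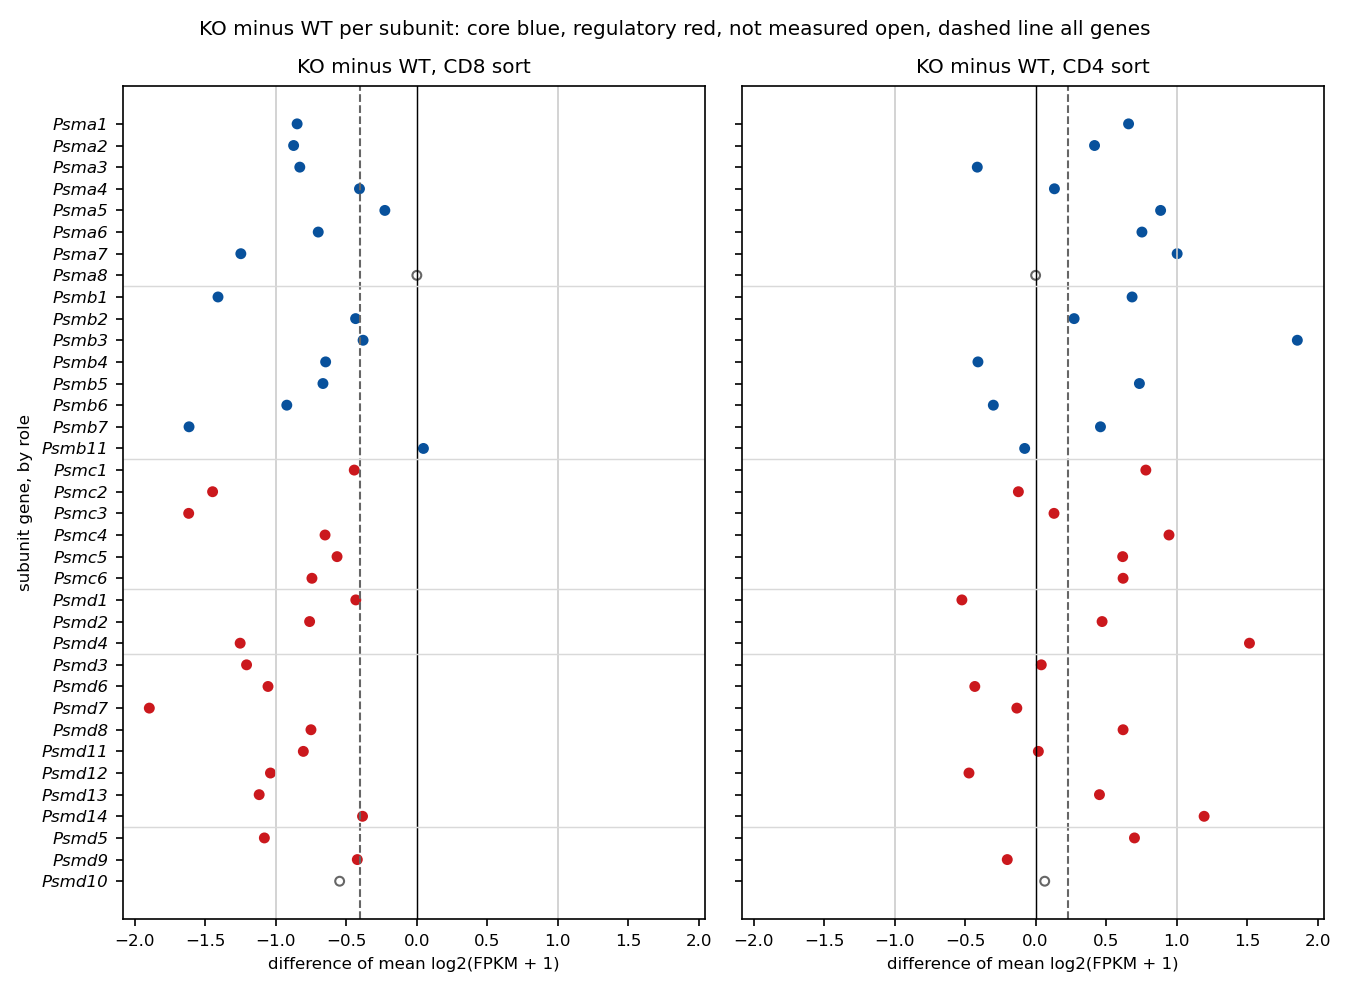
Difference in mean log2(FPKM + 1), KO minus WT (x axis), for each subunit by role (y axis) in the CD8 sort (left) and the CD4 sort (right); core genes are blue, regulatory genes red, genes not measured open, and the dashed line is the median of all measured genes, -0.40 in CD8 and 0.23 in CD4. Nearly all points lie left of 0 in the CD8 sort, with Psmd7 furthest at -1.90, and most lie right of 0 in the CD4 sort, with Psmb3 furthest at 1.86.

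In the CD4 sort the same contrast ran the other way for most members. In KO CD4 cells, 11 of 15 measured core genes and 13 of 19 measured regulatory genes had higher values than in WT CD4 cells, against 66.1% of all 3864 measured genes. The median difference was 0.46 for core and 0.45 for regulatory genes, against 0.23 for all genes. As the log2 of mean FPKM it was 0.20 for core and 0.089 for regulatory genes, against 0.098 for all genes. Past the fold and higher were 2 core genes, Psmb3 and Psma7, and 2 regulatory genes, Psmd4 and Psmd14, against 9.91% of all genes, so the share of members past the fold was close to that of all genes. None was lower past the fold, against 0.983% of all genes.

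Psmb3 was in 62.9% of KO CD4 cells (52.03 to 72.9) against 38.8% of WT CD4 cells (28.4 to 50.01), with intervals that did not overlap and a log2 difference of 1.86. Its median was 256.2 FPKM in KO CD4 cells and 0 in WT CD4 cells, and its highest value was 1684 FPKM in KO CD4 and 1769 FPKM in WT CD4. Where it was found, WT CD4 cells had more of it, with a median of 532 FPKM in KO CD4 and 669 FPKM in WT CD4. Psmd4 averaged 221.2 FPKM in KO CD4 and 176.1 FPKM in WT CD4, was found in 51.7% and 32.9% of them in that order, and differed by 1.52. Its ranges overlapped, from 0 to 1125 FPKM in KO CD4 and from 0 to 1458 FPKM in WT CD4. Psmd14 was found in 35.96% of KO CD4 and 20% of WT CD4 cells and differed by 1.20, and Psma7 was found in 49.4% of KO CD4 and 36.5% of WT CD4 cells and differed by 1.004.

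By role, the alpha ring was higher in 6 of 7 genes (median 0.66), the ATPases in 5 of 6 (0.62), the beta ring in 5 of 8 (0.37) and the lid in 5 of 8 (0.03). Lower in KO CD4 cells were 4 core and 6 regulatory genes, against 33.9% of all genes, among them the core genes Psma3 (-0.41), Psmb4 (-0.41), Psmb6 (-0.30) and Psmb11 (-0.08). Among regulatory genes, Psmd1 lay at -0.52 and the lid genes Psmd12 at -0.47 and Psmd6 at -0.43. The lid was the role with the lowest median in both sorts. Psmd7, the furthest in the CD8 sort, was found in 23.6% of KO CD4 and 22.4% of WT CD4 cells and differed by -0.13.

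As in the CD8 sort, the difference moved under some settings for the number of genes per cell, which was higher in KO CD4 cells. Weighted over the same bins of genes found, the core median was 0.03 and the regulatory median -0.12. In cells with at least 2000 genes they were -0.26 and -0.29. Psmb3 and Psmd4 stayed past the fold in the weighted cells, at 1.20 and 1.02. Psma7 and Psmd14 did not, at 0.56 and 0.74. Where a member was found, the median difference was -0.01 for core and -0.35 for regulatory genes. Without Foxp3 cells in the CD4 sort the core median was 0.52 and the regulatory median 0.11, against 0.21 for all genes.

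Of the members measured in both sorts, 11 of 15 core and 13 of 19 regulatory genes were lower in KO than WT cells in the CD8 sort and higher in KO than WT cells in the CD4 sort, as was the number of genes per cell. Of all 3621 genes measured in both sorts, 51.1% had this pattern. Lower in KO cells in both sorts were 3 core and 6 regulatory genes, against 25.5% of all genes. The difference between the sorts was not tested, since each holds 1 pool of each genotype.

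Between the sorts, the median differences over all kept cells lay further from 0 in WT cells than in KO cells, which was not tested. This did not hold for regulatory genes under some other settings. With at least 2000 genes their median was 0.20 in WT and 0.49 in KO cells, and weighted it was 0.01 in WT and 0.07 in KO cells. As the log2 of mean FPKM it was -0.14 in WT and 0.28 in KO cells. In WT cells, values in the CD4 sort were lower than in the CD8 sort for 14 of 15 measured core genes and 19 of 19 measured regulatory genes, against 83.5% of all 4729 measured genes. The median difference, CD4 minus CD8, was -1.21 for core and -1.001 for regulatory genes, against -0.53 for all genes. As the log2 of mean FPKM it was -0.27 for core and -0.14 for regulatory genes, against -0.18 for all genes. Past the fold and lower were 9 core and 10 regulatory genes, against 23.4% of all genes. None was higher past the fold, against 1.54% of all genes. Psmb1 averaged 259.6 FPKM in WT CD4 and 398 FPKM in WT CD8 cells (log2 difference -1.87), and Psma2 averaged 216.4 FPKM in WT CD4 and 296.3 FPKM in WT CD8 cells (-1.64). The lid gene Psmd8 was present in 30.6% of WT CD4 cells (21.05 to 41.5) against 54.4% of WT CD8 cells (43.6 to 64.98), and the ATPase gene Psmc6 in 18.8% of WT CD4 cells (11.2 to 28.8) against 40% of WT CD8 cells (29.8 to 50.9). For both, the intervals did not overlap, and the differences were -1.64 and -1.43. With cells weighted over bins of genes found they were 0.0066 for Psmd8 and -0.46 for Psmc6. These values share the WT pools with the comparisons above. Weighted over the same bins of genes found, the WT medians turned to 0.19 for core and 0.01 for regulatory genes. In cells with at least 2000 genes they were 0.42 and 0.20. None of the 19 members past the fold in WT cells stayed past it in the weighted cells, where they lay between -0.46 and 0.49.

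In KO cells the medians of the sorts lay close together over all kept cells, but not under each other setting. In cells with at least 2000 genes the median difference was 0.39 for core and 0.49 for regulatory genes, against 0.29 for all genes. Without Foxp3 CD4 cells it was -0.48 and -0.16, against -0.20 for all genes. The values that follow are over all kept cells. The median difference, CD4 minus CD8, was 0.01 for core genes, with 8 higher and 7 lower, and 0.20 for regulatory genes, with 14 higher and 5 lower, against 0.03 for all 3956 measured genes, of which 51.8% were higher and 48.2% lower. Past the fold and higher were 0 core and 2 regulatory genes, against 8.24% of all genes, and 0 members were lower past the fold, against 4.55% of all genes. The chaperone gene Psmd5 was found in 25.8% of KO CD4 cells (17.1 to 36.2) and 6.98% of KO CD8 cells (2.60 to 14.6), with intervals that did not overlap and a difference of 1.44. Psmd4 averaged 221.2 FPKM in KO CD4 and 156.1 FPKM in KO CD8 and differed by 1.35. Both kept the fold in the weighted cells, at 1.31 and 1.23.

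Taking each member over the 4 groups by mean log2, WT CD8 was the highest for 13 of 15 core and 16 of 19 regulatory genes that were found in at least 20% of the cells of some group. Of all 4929 such genes, 59.7% were highest in WT CD8, which also had the most genes per cell. The lowest was WT CD4 for 8 core and 7 regulatory genes, against 43.3% of all genes, and KO CD8 for 3 core and 9 regulatory genes, against 27.8% of all genes. KO CD4 was the highest for 1 core and 3 regulatory genes, against 17.8% of all genes. The middle groups often lay closer to each other than the intervals of their shares are wide, as for Psmb1 with 62.9% (52.03 to 72.9) of KO CD4 and 59.3% (48.2 to 69.8) of KO CD8 cells.

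Within a cell, few of the subunits were found at once. The median cell had 5.5 of the 16 core genes in KO CD8, 6 in WT CD8, 5 in KO CD4 and 4 in WT CD4. Of the 20 regulatory genes it had 5 in KO CD8, 7 in WT CD8, 6 in KO CD4 and 4 in WT CD4. The highest number was 13 core and 14 regulatory genes in KO CD8, 15 and 20 in WT CD8, 14 and 19 in KO CD4, and 15 and 20 in WT CD4. The number was higher in cells with more genes in each pool. Spearman's rho between core genes and all genes found was 0.71 in KO CD8, 0.82 in WT CD8, 0.76 in KO CD4 and 0.83 in WT CD4, as a description over cells that share a library type and differ in depth.

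**Figure D3:**
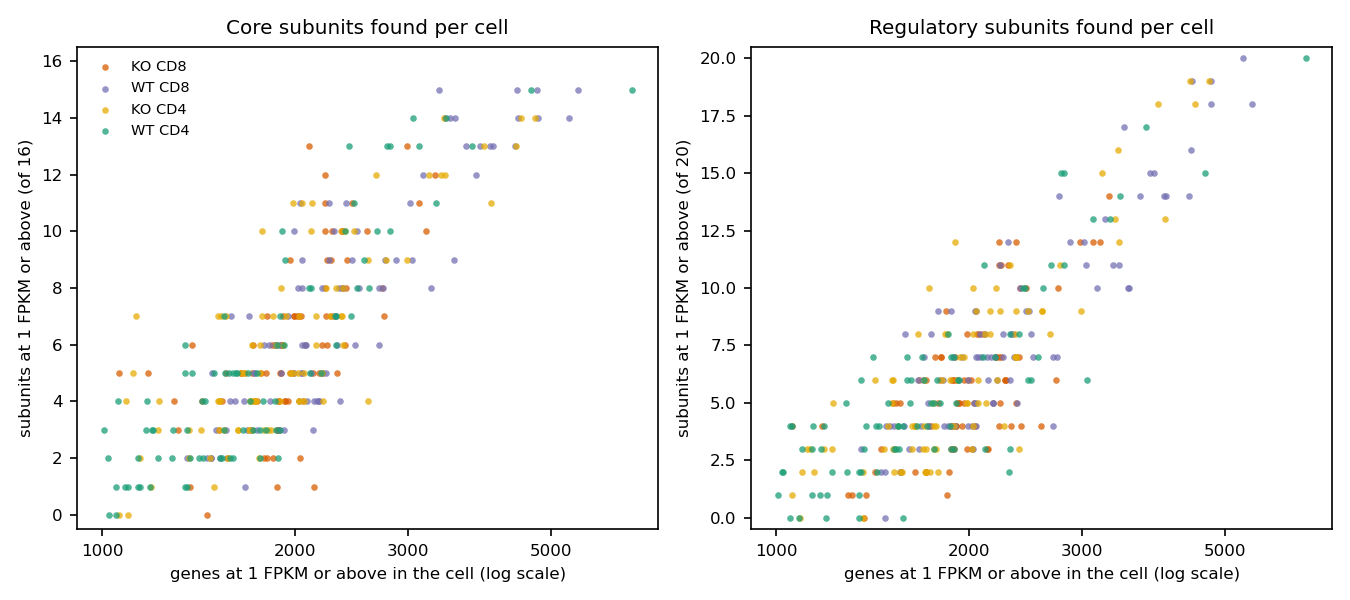
Number of core (left, of 16) and regulatory (right, of 20) subunits at 1 FPKM or above (y axis) against the genes at 1 FPKM or above in the same cell (x axis, log scale), 1 point per cell, coloured by pool. The number climbs with the genes found in every pool, and cells with 3000 or more genes are 3 in KO CD8, 21 in WT CD8, 9 in KO CD4 and 7 in WT CD4.

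In the 2 bins of genes per cell that held the most cells over the 4 pools together, the median numbers of subunits differed little between the pools. Cells in the bin from 1500 to under 2000 genes had a median of 5 core and 5 regulatory genes in KO CD8, 4.5 and 4.5 in WT CD8, 4 and 4 in KO CD4, and 4 and 5 in WT CD4. Cells in the bin from 2000 to under 2500 genes had 7 and 7 in KO CD8, 6 and 7 in WT CD8, 7 and 8 in KO CD4, and 7.5 and 7 in WT CD4. In these bins the summed regulatory level was 1087 and 1891 FPKM in KO CD8 and 1442 and 1725 FPKM in WT CD8, so that the pools changed order between the bins. The other bins held fewer cells over the 4 pools together. In WT CD4 alone, the bin from 1000 to under 1500 genes held the most cells, 31, with medians of 2 core and 2 regulatory genes. The 14 KO CD4 cells of that bin had medians of 2.5 and 3. From 1000 to under 1500 genes the medians were 4 core and 1.5 regulatory genes in 8 KO CD8 cells and 2 and 2 in 5 WT CD8 cells, with summed core levels of 1379 FPKM in KO CD8 and 206.9 FPKM in WT CD8. From 2500 to under 3000 genes the summed regulatory level ran from 1299 FPKM in 4 KO CD8 cells to 3074 FPKM in 6 WT CD4 cells. At 3000 genes or more the median number of regulatory genes was 12 in 3 KO CD8, 14 in 21 WT CD8, 16 in 9 KO CD4 and 14 in 7 WT CD4 cells.

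Core and regulatory sums were correlated over cells. Spearman's rho of the summed FPKM was 0.46 in KO CD8, 0.65 in WT CD8, 0.55 in KO CD4 and 0.45 in WT CD4. As a partial rank correlation, given the number of genes found, it was 0.36, 0.28, 0.30 and 0.08 in the same order. Single members followed the sum of the other members weakly, with a median rho of 0.19 in KO CD8, 0.39 in WT CD8, 0.34 in KO CD4 and 0.33 in WT CD4. In WT CD8, Psmd1 of the base (0.59) and Psma3 (0.55) and Psma1 (0.54) of the alpha ring were the most like the rest, and Psmb11 (0.00) the least.

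Cycling cells, marked by at least 3 of 10 cell cycle genes, had more subunits and also more genes. Their median was 11 core and 12 regulatory genes in 3 KO CD8 cells, 12 and 13 in 15 WT CD8 cells, 11 and 11 in 14 KO CD4 cells and 10.5 and 11.5 in 10 WT CD4 cells. The other cells had 5 and 5 in KO CD8, 6 and 7 in WT CD8, 5 and 5 in KO CD4 and 4 and 4 in WT CD4. Cycling cells had a median of 3114, 3256, 3108 and 2957 genes in the same order, and the part of depth in this difference was not tested. Among KO CD4 cells, those with Foxp3 had a median of 7 core and 8 regulatory genes and those without had 4 and 5. Among WT CD4 cells, those with Foxp3 had 5 and 5.5 and those without had 3 and 4. Foxp3 cells also had more genes, with medians of 2152 against 1746.5 in KO CD4 and 1883.5 against 1547 in WT CD4.

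Beside the constitutive catalytic genes stand their immunoproteasome counterparts, Psmb8 for Psmb5, Psmb9 for Psmb6 and Psmb10 for Psmb7. Summed, the immunoproteasome genes had 816 FPKM and the constitutive ones 392 FPKM in KO CD8 (ratio 2.08), 1271 and 445 FPKM in WT CD8 (2.86), 1082 and 342.2 FPKM in KO CD4 (3.16), and 1108 and 335.3 FPKM in WT CD4 (3.30). Of the 3 pairs Psmb8 and Psmb5 lay furthest apart in each pool, with Psmb8 at 3.18 times Psmb5 in KO CD8, 4.83 in WT CD8, 5.23 in KO CD4 and 6.07 in WT CD4. Psmb9 lay below Psmb6 in KO CD8, at a ratio of 0.82, and above it elsewhere, at 1.25 in WT CD8, 1.46 in KO CD4 and 1.39 in WT CD4. Psmb10 stood at 1.44 times Psmb7 in KO CD8, 1.41 in WT CD8, 1.03 in KO CD4 and 2.03 in WT CD4. Cells with Psmb8 and no Psmb5 numbered 47 of 86 in KO CD8, 44 of 90 in WT CD8, 44 of 89 in KO CD4 and 43 of 85 in WT CD4, and cells with Psmb5 and no Psmb8 were 6, 6, 5 and 3.

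**Figure D4:**
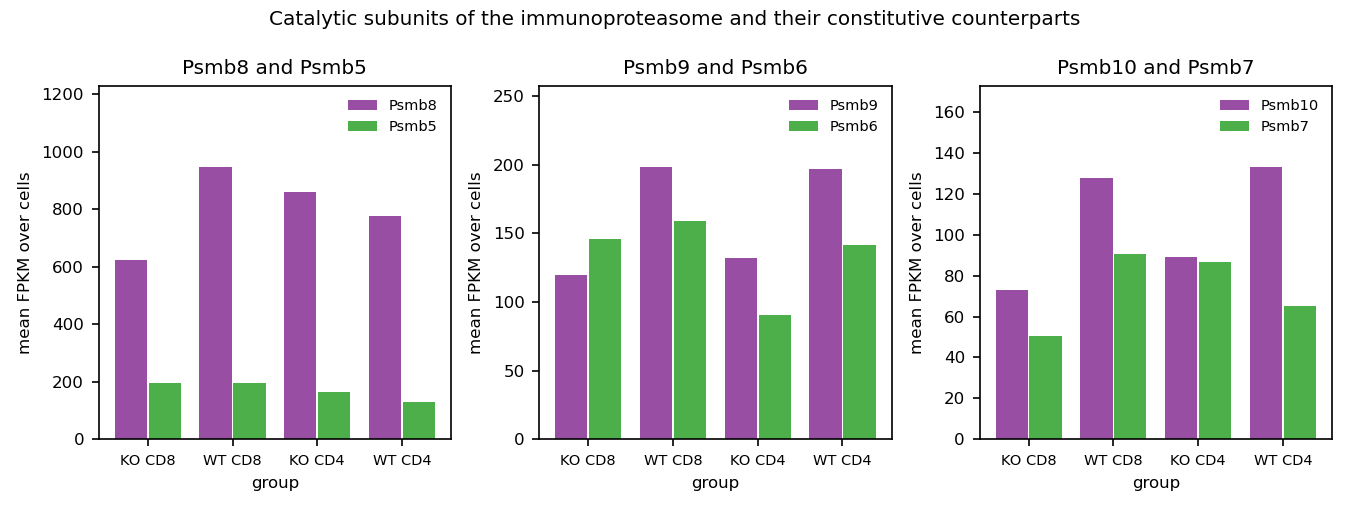
Mean FPKM over cells (y axis) of each immunoproteasome subunit (purple) and its constitutive counterpart (green) in KO CD8, WT CD8, KO CD4 and WT CD4 pools (x axis); each bar is 1 pool with no replicate. Psmb8 exceeds Psmb5 in every pool, from 3.18 times in KO CD8 to 6.07 times in WT CD4, and Psmb9 lies below Psmb6 in KO CD8 alone.

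The median difference of the immunoproteasome genes between the CD8 pools was -1.81, beside -0.92 for the middle of their 3 constitutive counterparts, Psmb6. In KO CD8 against WT CD8 cells, Psmb9 lay at -1.87, Psmb10 at -1.81 and Psmb8 at -0.90, and 2 of 3 were past the fold. Of 3 measured activator and inhibitor genes 2 were past the fold, Psme1 and Psme2, whose ring opens the core without ubiquitin, at -2.46 and -1.58. Of all measured genes 13.3% were lower past the fold, and their median was -0.40. Psme1 was found in 60.5% of KO CD8 and 86.7% of WT CD8 cells. Weighting over bins of genes found was run for the members only, so these genes have no weighted value. Weighted, the constitutive counterparts lay at 0.59 (Psmb5), 0.38 (Psmb6) and -1.24 (Psmb7) in the CD8 sort. In KO CD4 against WT CD4 cells the same genes lay within the fold, with Psmb8 at 0.77, Psmb9 at 0.15, Psmb10 at -0.27, Psme1 at -0.01 and Psme2 at -0.05.

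Of the small regulatory subunits named outside the Psm pattern, Shfm1 (also Sem1), a lid subunit, lay at -1.06 and Adrm1, a ubiquitin receptor, at -0.74 in the CD8 sort, and at 1.99 and 1.14 in the CD4 sort. Shfm1 was found in 59.6% of KO CD4 and 32.9% of WT CD4 cells. In the CD8 sort, 0 of 2 measured core assembly genes, 0 of 2 measured genes of bound deubiquitinases and a ligase, 0 of 5 ubiquitin genes and 0 of 3 measured regulator and segregase genes were past the fold, against 13.3% of all genes that were lower and 0.555% that were higher, a share at which lists this short can hold none. In the CD4 sort 1 of 5 ubiquitin genes was, Rps27a at 1.37, and none of the other 3 lists had one, against 9.91% of all genes that were higher and 0.983% that were lower. In WT cells, CD4 minus CD8, where the median of all genes was -0.53 and 23.4% were lower past the fold, Shfm1 lay at -2.48, Psme1 at -2.79, Psme2 at -1.54, Adrm1 at -1.44, Uchl5, a bound deubiquitinase, at -1.52 and Pomp, the core assembly chaperone, at -1.10. The ubiquitin gene Rps27a lay at -2.34, the ubiquitin-activating enzyme gene Uba1 at -1.54, and Psmb8, Psmb10 and Psmb9 at -1.41, -1.24 and -1.05. No weighted values were computed for these genes. Of the 19 members past the fold in this comparison, none stayed past it when weighted.

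**Figure D5:**
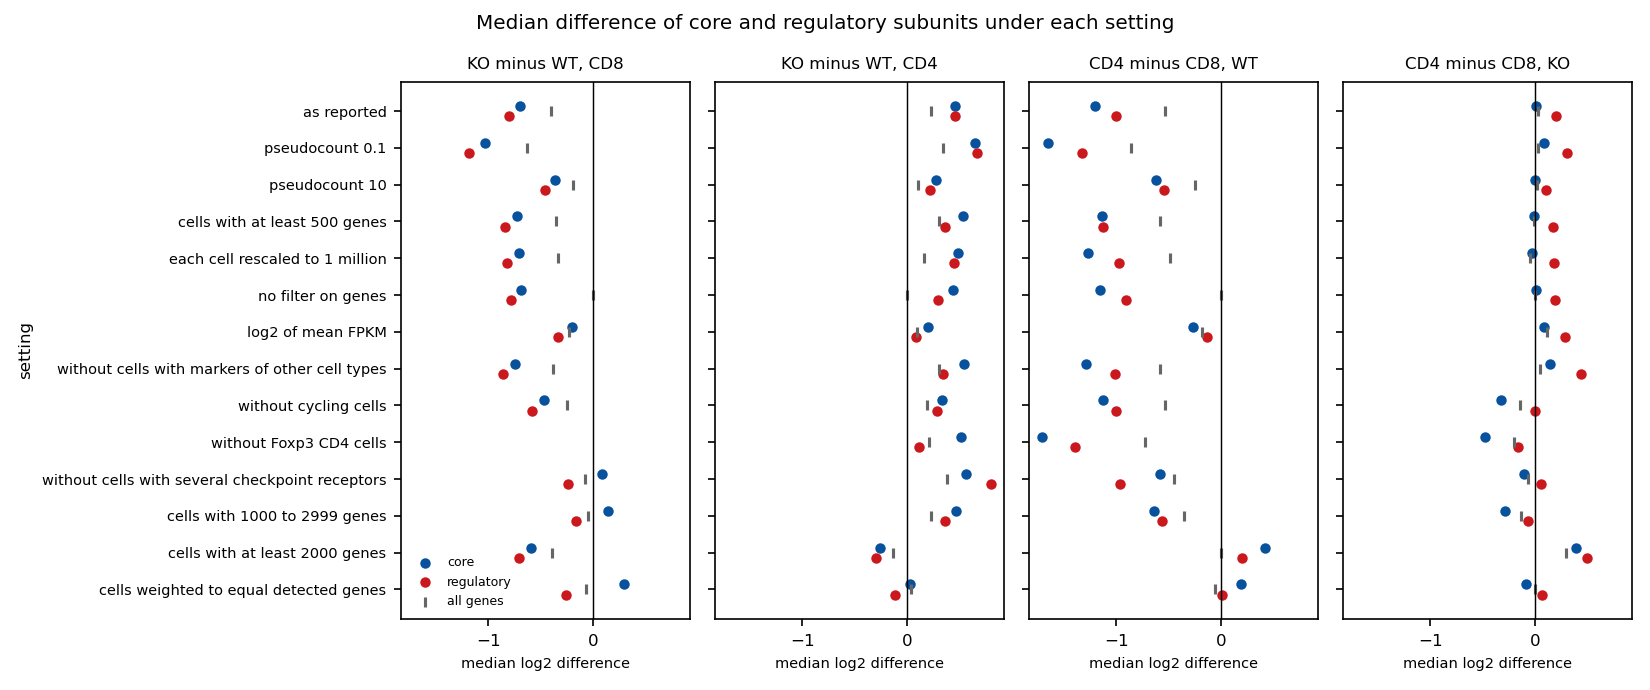
Median log2 difference (x axis) of core genes (blue), regulatory genes (red) and all measured genes (grey ticks) in the 4 comparisons (panels) under each way of handling the values or cells (y axis). The medians keep their side of 0 under changes of pseudocount and scaling where they were at least 0.1 from it. They move towards or past 0 with cells weighted over bins of genes found. The core median of KO minus WT in CD8 is -0.70 as reported and 0.29 with cells weighted.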

How the data were processed

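Single T cells were profiled by Smart-seq2 with Nextera XT libraries, per the labels' protocols. The authors deposited gene-level FPKM, and the file is marked as TMM-normalized. The submitters' processing notes name Bowtie, RSEM and the build mm10. Versions are not given in the sources used here, and read counts per cell were not used, so depth was read as genes found per cell. The table held 23366 rows and 375 columns. Of the columns, 4 had no sample and were not used, and 4 rows with repeated symbols were left out.

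Cells were kept if 1000 or more genes stood at 1 FPKM or above. Values are means of log2(FPKM + 1) over cells, a scale that understates the change of low genes. A gene was measured where at least 20% of cells of either pool had 1 FPKM or above, and past the fold at a difference of 1. All genes of the table went through the same steps and form the background. Shares carry exact Clopper-Pearson 95% intervals, and a share of 0 the limit that 3 counts allow. FPKM gives no molecule counts, so these intervals cover counting error over cells only. Each group is 1 pool, so no test was made and no p-value computed. Promoters are from RefSeq (GRCm38.p6, the build named mm10). Python 3.11.15, numpy 2.4.6, pandas 2.3.3, scipy 1.17.1 and matplotlib 3.10.9 were used.

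Named genes are all members by role and, of the other proteasome lists, those past the fold and the immunoproteasome genes. The members and lists were chosen with earlier results of these data known. Alternatives were the pseudocount (0.1 and 10), the filters on cells (500 and 2000 genes) and genes, rescaling, the log2 of mean FPKM, weighting, detection at 10 FPKM, and leaving out marked cells. Cells with fewer than 3000 genes, the core without Psmb11, and leaving out cells with several checkpoint receptors were added after seeing the data.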

Additional observations from a re-analysis of the deposited data

Results flagged for a closer look

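The difference between KO and WT ran in opposite directions in the CD8 and CD4 sorts for core and regulatory genes. The core median was -0.70 in the CD8 sort and 0.46 in the CD4 sort, and the regulatory median was -0.81 in the CD8 sort and 0.45 in the CD4 sort. The difference between the sorts was not tested, because each sort holds 1 pool of each genotype. The medians of all measured genes ran the same way, at -0.40 in the CD8 sort and 0.23 in the CD4 sort, and so did the genes found per cell.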

How the results depend on the processing

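No paired analysis was possible because each group is 1 pool with the same number, and no replicate could be left out. Among the recomputed medians, 89 moved by less than 0.585 on the log2 scale, a 1.5-fold change of the fold, and stayed on their side of 0 if they were at least 0.1 from it, which includes every median under other pseudocounts, at least 500 genes, rescaling, no filter on genes, no cells with other markers and no Psmb11. Within that limit medians still shrank, as with pseudocount 10 to -0.37 for core genes in CD8 and 0.22 for regulatory genes in CD4, and the core median of CD4 minus CD8 in KO, 0.01, fell on either side of 0. Of the others, 13 turned and 4 moved further. They came from at least 2000 genes and weighting (4 each), fewer than 3000 genes (3), log2 of mean FPKM and no checkpoint cells (2 each), and no Foxp3 and no cycling cells (1 each). For KO minus WT in CD8, the core median was 0.29 with cells weighted over bins of genes found. It was 0.14 in cells with fewer than 3000 genes (regulatory -0.17) and 0.085 without cells with several checkpoint receptors. For KO minus WT in CD4, the core and regulatory medians were -0.26 and -0.29 in cells with at least 2000 genes, and the regulatory median -0.12 with weighting. For CD4 minus CD8 in WT, they were 0.42 and 0.20 with at least 2000 genes, 0.19 and 0.0066 with weighting, -0.27 and -0.14 as log2 of mean FPKM, and the core median -0.58 without checkpoint cells. For CD4 minus CD8 in KO, the regulatory median was -0.0030 without cycling cells, -0.16 without Foxp3 CD4 cells and -0.070 in cells with fewer than 3000 genes. Members past the fold turned only in CD4 minus CD8, WT, 22 times. With at least 2000 genes these were Psma2 (0.42), Psma5 (0.21), Psma6 (1.10), Psma7 (0.53), Psmb3 (0.74), Psmb5 (0.39), Psmb7 (1.26), Psmc2 (0.27), Psmc3 (0.47), Psmc5 (0.12), Psmd3 (0.80) and Psmd8 (0.13). With weighting these were Psma2 (0.065), Psma5 (0.19), Psma7 (0.13), Psmb3 (0.11), Psmb6 (0.49), Psmb7 (0.19), Psmc3 (0.041), Psmd3 (0.35) and Psmd8 (0.0066), and as log2 of mean FPKM Psmb3 (0.21). Shares moved by over 1.5 times at 10 FPKM for Psmb11 and Psmd9. The cause of these changes was not tested, and depth limits what a share near 0 can show.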
